A study of Homo sapiens with 6 samples.

Results

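A group of 5 genes best known from nerve cells, which lie in a pair of separate runs on human chromosome 19q13, SYT3, SYT5, SHANK1, LRRC4B and BRSK1, was read in K562 cells made resistant to imatinib. K562 is an established human chronic myeloid leukaemia line, driven by the BCR-ABL1 fusion kinase, which imatinib inhibits. The 5 genes were taken from a table of 674 genes that the authors deposited as common to their comparisons of imatinib-sensitive K562 cells (WT) with the imatinib-resistant lines IR1 and IR2. They were chosen because they are in that table, are known from synapses and neurons, and lie in 2 runs on the same chromosome arm, so their fold changes are given as a description and no test was made on them. RNA was sequenced from 6 libraries, 2 each of WT, IR1 and IR2. All lines were grown in RPMI medium with fetal bovine serum and antibiotics, and only IR1 and IR2 were kept in imatinib, so resistance and exposure to the drug cannot be told apart. Nothing in the labels says that the 2 libraries of a group came from separate cultures.

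Each gene has 2 values, a log2 fold change in each of 2 columns. The header gives neither the line behind each column nor the group in the numerator. A positive value may therefore mean a higher level in the resistant line or in WT, and the columns are called the first and the second. The table used here gives no value per library, no error, no p-value and no expression level, so the depth is unknown and none of the folds has a replicate spread beside it. It lists changed genes alone, and the levels of cell type markers could not be checked. Of 10 markers of neurons GAP43 alone was listed, beside 480 of all 19659 protein-coding genes.

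Neurons release transmitter when a rise in calcium makes synaptic vesicles fuse with the membrane. Synaptotagmins are vesicle and membrane proteins with paired C2 domains, many of which bind calcium and couple it to fusion. On the receiving side, SHANK proteins form a scaffold that ties receptors to the actin skeleton, and leucine-rich repeat proteins of the LRRC4 (netrin-G ligand) family reach across the cleft to receptors on the axon. BRSK1, also called SAD-B, is a kinase of the AMPK-related family that acts in neuronal polarity, shown mainly in mice. Such genes are largely silent in blood cells, where the repressor REST is one of the factors known to hold neuronal genes off.

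All 5 genes were positive in both columns of the authors' deposited table, as were 74.3% of the 674 listed genes. Since the table holds only genes past a limit in both comparisons, and the genes were picked from it, nothing is read from this count. Sizes differed among the 5 genes: LRRC4B stood apart with the highest value in each column, and the synaptotagmin genes were the lowest pair in the second column.

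**Figure D1:**
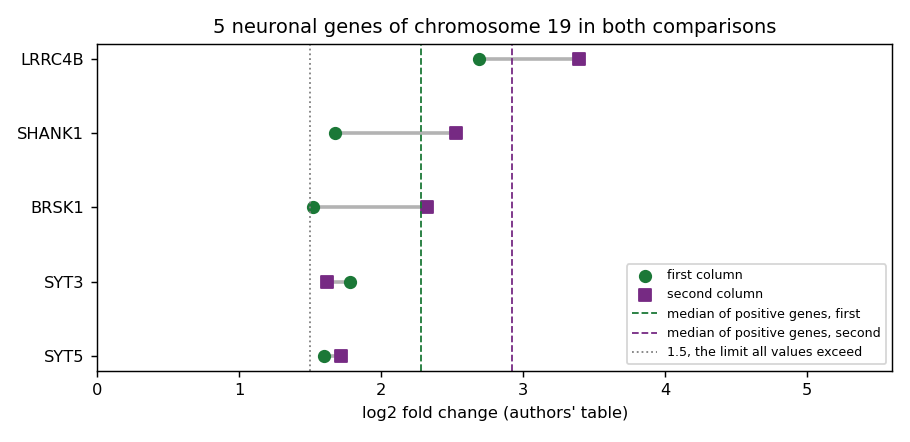
Log2 fold change (horizontal axis) of each of the 5 genes, from the first (circles) and second (squares) column of values that the authors deposited, with the medians of the 501 positive genes as dashed lines and the limit of 1.5 as a dotted line. LRRC4B is the only one of the 5 to the right of both medians, and SYT3 is the only one whose square lies to the left of its circle.

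On the receiving side of the synapse, LRRC4B (ENSG00000131409), the netrin-G ligand that binds receptor tyrosine phosphatases of the LAR type, was listed in the authors' deposited table with log2 fold changes of 2.69 (first column) and 3.39 (second column). These are folds of 6.46 and 10.5. Its mean over both columns exceeded that of 66.7% among the 501 positive entries of the authors' deposited table, which put it at place 167 from the top. SHANK1 (ENSG00000161681), the scaffold protein of the postsynaptic density at excitatory synapses, was found at 1.68 and 2.53 in the authors' deposited table, folds of 3.20 and 5.78. Both of its values were below those of LRRC4B.

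Among the other 3 genes, SYT3 (ENSG00000213023), a synaptotagmin with high calcium affinity, was at 1.78 and 1.62 (log2 fold change) in the authors' deposited table, folds of 3.43 and 3.07. SYT5 (ENSG00000129990), a calcium-binding synaptotagmin known from dense-core vesicles, had 1.60 and 1.72 in the authors' deposited table, folds of 3.03 and 3.29. The 2 synaptotagmins thus had nearly the same fold in both comparisons. All of these values lie near 1.5, which every listed gene exceeded in absolute value, so nothing is read from this likeness. The polarity kinase BRSK1 (ENSG00000160469) had 1.52 and 2.32 in the authors' deposited table, folds of 2.87 and 5.0.

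The order of the 5 genes changed between the columns. From the highest down it was LRRC4B, SYT3, SHANK1, SYT5 and BRSK1 in the first column and LRRC4B, SHANK1, BRSK1, SYT5 and SYT3 in the second. Below LRRC4B, the first-column values of the authors' deposited table spanned only 1.52 to 1.78, and with no error to set them against, these neighbours in the order cannot be separated. In the second column the values below LRRC4B were a pair above 2 (SHANK1 and BRSK1) and a lower pair (the synaptotagmins). No error is given there either, and the difference between the pairs was not tested.

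In 4 of the 5 genes the second column held the larger absolute fold, beside 76.7% of all listed genes. For SHANK1, BRSK1 and LRRC4B the second log2 fold change of the authors' deposited table exceeded the first by 0.85, 0.80 and 0.70, so that the folds were 1.80, 1.74 and 1.62 times as large. For SYT5 of the authors' deposited table the gap was 0.12, and for SYT3 it was -0.16, a first fold 1.12 times the second. Both comparisons use the same WT libraries, and the gaps were not tested.

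The 5 genes were mostly modest entries of the table. Their medians in the authors' deposited table were 1.68 (first column) and 2.32 (second column) on the log2 scale, beside 2.28 and 2.92 for the 501 positive genes and 2.26 and 2.69 for the 352 positive protein-coding genes. An absolute log2 fold change of 2 or more in both columns was reached by LRRC4B alone of the 5, beside 58.9% of all listed genes. By mean of both columns, SHANK1 exceeded 23.0% of the positive genes of the authors' deposited table, BRSK1 14.8%, SYT3 5.59% and SYT5 3.19%.

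Every listed gene exceeded 1.5 in absolute log2 fold change in both columns, a property of the values for which no stated filter was found. BRSK1 was the nearest of the 5 to this edge, since only 16 of the 674 genes had a smaller value as the lower of their 2. For SYT5, SYT3 and SHANK1 of the authors' deposited table the lower of the 2 values was 1.60, 1.62 and 1.68, and 76, 86 and 124 genes had a smaller one. Genes just outside the limit were not analysed here.

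**Figure D2:**
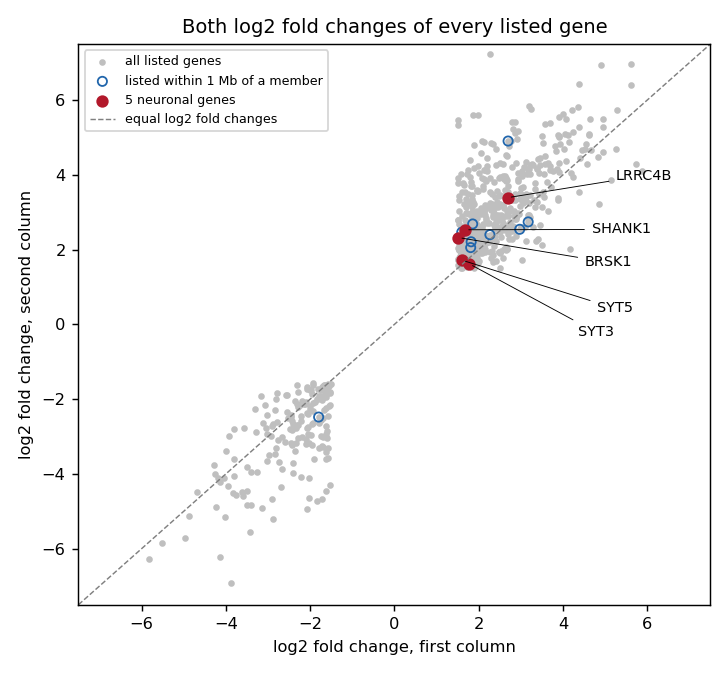
Log2 fold change in the first column (horizontal axis) against that in the second (vertical axis) for each of the 674 listed genes (grey), the 5 neuronal genes (red) and the 9 other listed genes within 1 Mb of one of them (blue rings), with the line of equal values. The red points sit at the lower left of the cloud of positive genes, with LRRC4B further into it, and 8 of the 9 rings are positive.

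The genes lie in 2 runs, as read from the order of protein-coding genes in GENCODE release 29. The first run holds LRRC4B, SYT3 and SHANK1, all on the minus strand. From LRRC4B to SHANK1 there are 4 protein-coding genes, and C19orf81, between SYT3 and SHANK1, is the one that was not listed. The next gene after SHANK1 was listed too: CLEC11A, which encodes a secreted growth factor for blood and bone progenitors, was found at 2.27 and 2.40 in the authors' deposited table. Among the 10 protein-coding genes on either side of this run, CLEC11A was the only one listed.

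The second run is looser. SYT5, on the minus strand, and BRSK1, on the plus strand, are separated by 4 genes that were not listed, PTPRH, TMEM86B, PPP6R1 and HSPBP1, and 0 of the 20 flanking genes were listed. Between the 2 runs lie 147 protein-coding genes, of which 6 were listed (4.08%), close to the 3.94% for chromosome 19 as a whole (58 of 1472). Most genes around the 5 therefore have no value in the table used here, and whether they changed was not analysed here.

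**Figure D3:**
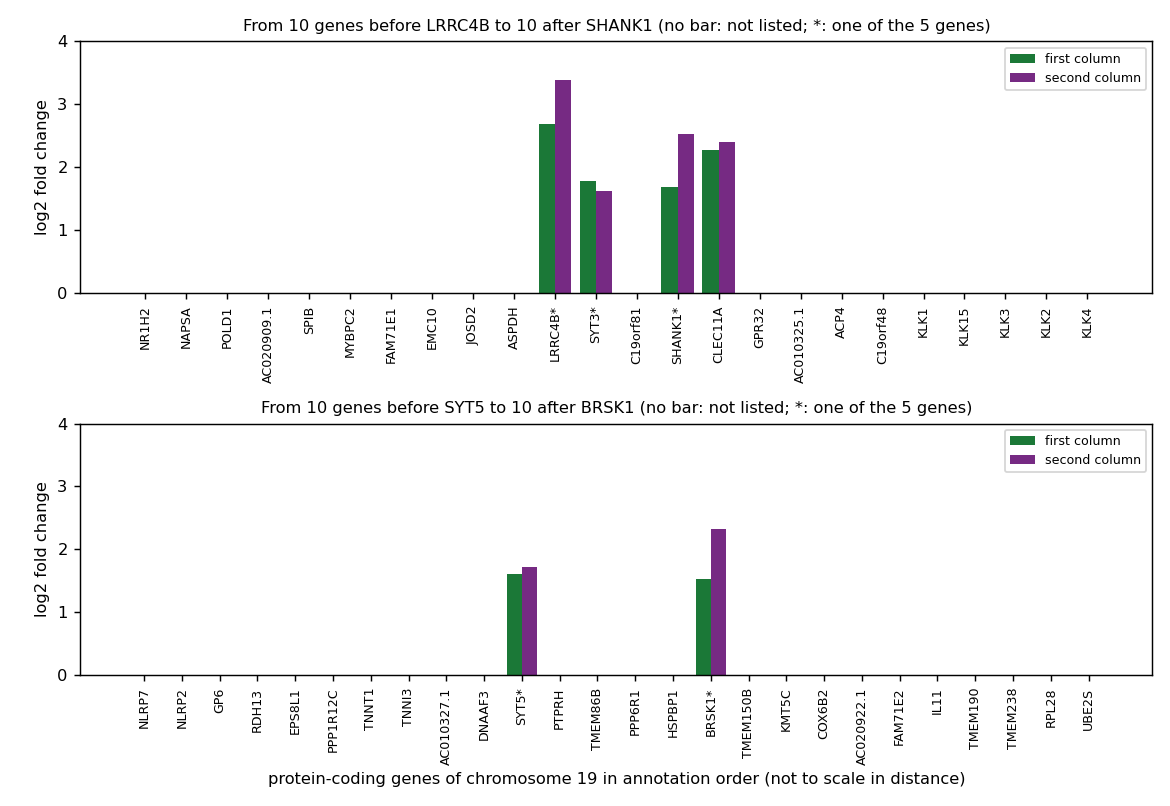
Log2 fold changes in the first (green bars) and second column (purple bars) of the authors' deposited table for the protein-coding genes around each run, in annotation order along the horizontal axis. The LRRC4B, SYT3, SHANK1 and CLEC11A bars stand side by side with one gap, and SYT5 and BRSK1 stand alone among genes without bars.

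Within 1 Mb of any of the 5 genes, 9 further genes were listed, and 8 of them had positive values in both columns. The share positive was 97.3% over all listed genes of chromosome 19 and 74.3% over all listed genes. In the authors' deposited table MYH14, a non-muscle myosin heavy chain, had 1.82 and 2.21. The transcription factor gene ATF5 (3.17 and 2.74) and FCGRT (2.97 and 2.54), the neonatal Fc receptor, had larger first values in the authors' deposited table, as SYT3 did. SSC5D, a scavenger receptor family gene near BRSK1, had 1.60 and 2.47 in the authors' deposited table, nearly the values of BRSK1 itself.

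Further neighbours were the myeloid surface gene CD33 (1.81 and 2.05) and the pseudogenes SIGLEC22P (2.70 and 4.90) and LILRP1 (-1.80 and -2.48) in the authors' deposited table. LILRP1 was the only negative one. The pseudogenes are copies in gene families, and their values are uncertain where reads fit several members. The 5 genes share their sign with genes of other kinds in the same stretch.

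Chromosome 19 as a whole was nearly all positive in the table, with 73 of its 75 listed genes above 0. Its 38 genes with zinc finger names (ZNF, ZFP or ZSCAN) had medians of 2.21 and 2.84 (log2 fold change) in the authors' deposited table. The 37 other listed genes, the 5 neuronal ones included, had 2.27 and 3.14 in the authors' deposited table. Only 58 of the 75 are protein-coding, so the 37 also hold pseudogenes and non-coding genes, while the 5 are all protein-coding. By mean of both columns, LRRC4B exceeded 68.5% of the 73 positive genes of the chromosome in the authors' deposited table, while SYT5 exceeded 1.37% of them.

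Other synaptic and neuronal genes of the table did not share one sign. Across 8 lists of synaptic and neuronal genes with 368 symbols, 19 genes were listed, 12 positive and 7 negative. Without the 5 genes described here, 7 were positive and 7 negative, beside 74.3% positive among all listed genes. Of the 13 on other chromosomes 6 were positive and 7 negative. Those on chromosome 19 were all positive, but they are mostly the 5 chosen genes. Of all listed genes of that chromosome 97.3% were positive, so no neuronal pattern is read from this. All genes tested by the authors would be needed to give an enrichment, and they were not used here. Of all 19659 protein-coding genes 480 were listed. The counts per list below are a description, and nothing is read from how many or how few genes were listed.

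**Figure D4:**
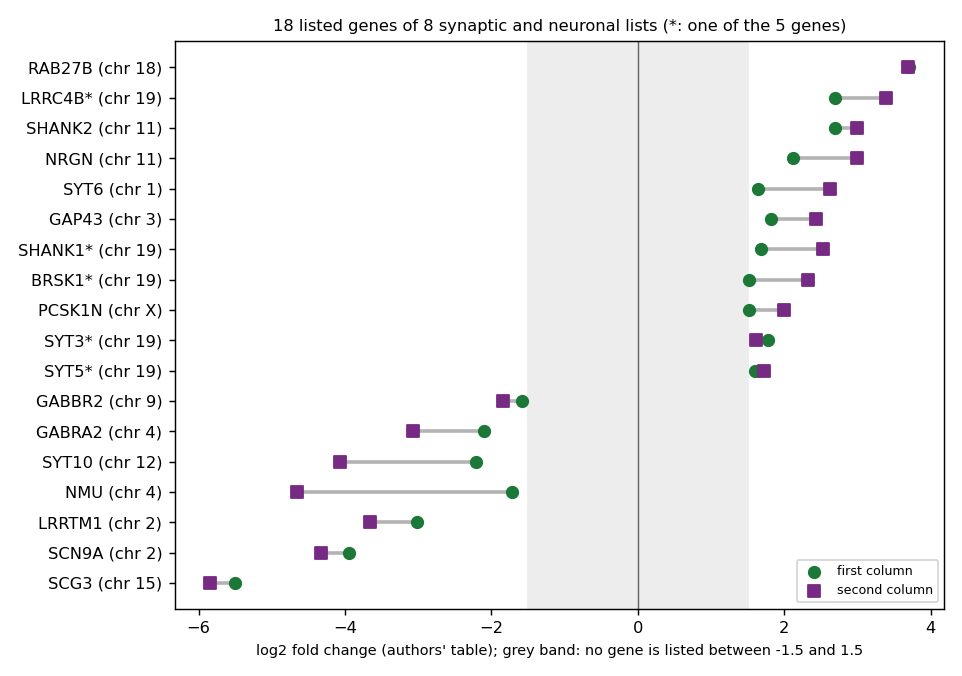
Log2 fold changes (horizontal axis) in the first (circles) and second column (squares) for 18 of the 19 listed genes of the 8 synaptic and neuronal lists, ordered by their mean, with the chromosome of each. The 5 neuronal genes of chromosome 19 all lie on the positive side, and the 7 genes on the negative side come from other chromosomes.

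Of 28 genes in the synaptotagmin list, 4 were listed. SYT6 was found at 1.65 and 2.62 in the authors' deposited table, close to SHANK1. SYT10 had -2.21 and -4.07 in the authors' deposited table, the opposite sign of the other listed synaptotagmins. Of 66 genes of the vesicle release machinery RAB27B alone was listed, a small GTPase that docks secretory granules and is also active in platelets, at 3.71 and 3.69 in the authors' deposited table.

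Among 37 postsynaptic scaffold genes, 3 were listed and all were positive. Beside SHANK1 these were its paralog SHANK2 (2.69 and 2.99) and NRGN (2.13 and 3.0), a calmodulin-binding protein of dendrites that platelets also contain, by the authors' deposited table. SHANK2 lies on chromosome 11, so the positive values of SHANK genes were not limited to 19q13. Of 69 genes for synaptic adhesion, LRRC4B and LRRTM1 were listed. LRRTM1, another leucine-rich repeat protein of the postsynaptic membrane, was found at -3.02 and -3.65 in the authors' deposited table, about as far below 0 as LRRC4B was above it. BRSK1 was the only listed gene of the 39 in the polarity kinase list, and its paralog BRSK2 and the upstream kinase gene STK11 were not listed.

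Of 98 channel and receptor genes, 4 were listed, 1 positive and 3 negative. The sodium channel gene SCN9A (-3.94 and -4.33), the GABA-A receptor subunit gene GABRA2 (-2.10 and -3.07) and the GABA-B receptor subunit gene GABBR2 (-1.58 and -1.85) all lay below 0 in the authors' deposited table. Of 25 dense-core granule and neuropeptide genes, the granin SCG3 (-5.50 and -5.85) and the neuropeptide NMU (-1.71 and -4.66) were negative, and PCSK1N (1.52 and 2.0), which encodes an inhibitor of prohormone convertase, was positive in the authors' deposited table. GAP43, a growth cone protein, had 1.82 and 2.43 in the authors' deposited table. Genes of glia were not listed (0 of 6).

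The protein-coding genes whose pair of values lay nearest to the median pair of the 5 genes came from other chromosomes. Likeness was the straight-line distance between 2 such pairs on the log2 scale, taken from the authors' deposited table. TMEM92 (1.73 and 2.28, distance 0.068), the collagen receptor kinase gene DDR2 (1.60 and 2.30, distance 0.082) and NLRP14 (1.75 and 2.38, distance 0.092) were the nearest 3. A pair of values is a thin basis for likeness.

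The promoters are shown because the 5 genes share a sign and a chromosome arm, so that their letters can be compared. RefSeq promoter sequences of the build GRCh38.p14 were matched by symbol for 4 of the 5 genes, with 7 annotated starts in all, and for each gene the start nearest to the 5′ end of its GENCODE gene was taken. SHANK1 was not matched. Each sequence runs 5′ to 3′ on the gene's strand, from 250 bases before the start to 50 after. Capitals mark matches on either strand to the GC box GGGCGG, a binding letter string of SP1-type factors, or to GGACAG, the right part of the motif bound by REST.
LRRC4B (GRCh38.p14, chr19:50550993-50551292, minus strand): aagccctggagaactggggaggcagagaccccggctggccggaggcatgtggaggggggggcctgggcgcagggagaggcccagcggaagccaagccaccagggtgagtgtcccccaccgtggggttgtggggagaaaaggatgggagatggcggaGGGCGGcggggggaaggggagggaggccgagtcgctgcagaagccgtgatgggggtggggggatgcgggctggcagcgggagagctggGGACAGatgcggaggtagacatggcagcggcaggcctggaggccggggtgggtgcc
SYT3 (GRCh38.p14, chr19:50639832-50640131, minus strand): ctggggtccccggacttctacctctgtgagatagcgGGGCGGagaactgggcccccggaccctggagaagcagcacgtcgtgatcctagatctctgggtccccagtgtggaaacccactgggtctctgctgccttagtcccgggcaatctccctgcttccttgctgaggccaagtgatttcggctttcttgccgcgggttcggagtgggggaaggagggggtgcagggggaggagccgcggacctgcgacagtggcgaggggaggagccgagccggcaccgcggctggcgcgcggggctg
SYT5 (GRCh38.p14, chr19:55180240-55180539, minus strand): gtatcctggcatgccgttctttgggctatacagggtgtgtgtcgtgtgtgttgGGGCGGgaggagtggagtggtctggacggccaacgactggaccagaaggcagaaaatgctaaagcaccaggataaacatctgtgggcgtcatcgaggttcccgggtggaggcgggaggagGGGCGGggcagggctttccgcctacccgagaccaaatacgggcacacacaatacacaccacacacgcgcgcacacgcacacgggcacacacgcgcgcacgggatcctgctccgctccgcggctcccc
BRSK1 (GRCh38.p14, chr19:55283747-55284046, plus strand): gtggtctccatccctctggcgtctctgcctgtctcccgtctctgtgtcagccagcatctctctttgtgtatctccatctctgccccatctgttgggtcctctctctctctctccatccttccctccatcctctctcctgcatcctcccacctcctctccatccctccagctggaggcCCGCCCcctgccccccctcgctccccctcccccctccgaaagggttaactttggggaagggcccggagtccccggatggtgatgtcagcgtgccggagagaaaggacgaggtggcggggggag

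A GC box was found in all 4 of these promoters. It was in 45.0% of 35114 annotated promoters of the same length and in 54.5% of the 668 promoters of listed genes. SYT5 had 2 matches and LRRC4B, SYT3 and BRSK1 had 1 each. The full REST motif was searched on either strand as TTCAGCACC and GGACAG with any 2 bases between. It was found in 0 of the 4, also with up to 2 mismatches. Over all promoters the share was 0.0142% without a mismatch and 0.188% with up to 2, so nothing is read from its absence in 4. The left part TTCAGCACC was found in 0 of the 4 and in 0.376% of all promoters. The right part GGACAG was found in LRRC4B alone, and in 20.6% of all promoters, and the E-box CACGTG in 0 of the 4 and in 7.26% of all. The marked matches do not overlap one another. These matches describe letters in a short window, and the binding of no factor was measured.

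At the starts taken, the promoters were rich in G and C. The G+C content was 71.7% for LRRC4B, 67.3% for SYT3, 63.7% for BRSK1 and 63.0% for SYT5, beside a median of 58.7% over all promoters and 62.7% over those of chromosome 19. The number of CpG sites was 25 in SYT5 and 22 in SYT3, and 16 in LRRC4B and 11 in BRSK1. The median was 14 over all promoters and 19 over those of chromosome 19. At the other annotated starts the G+C content was 51.7% and 65.3% for SYT3 and 70% for SYT5.

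The transcripts of the 5 genes were rich in G and C against all protein-coding genes, and less so against those of their own chromosome, where SYT5 lay below the median. In the longest protein-coding transcript of GENCODE the G+C content was 68.9% for SHANK1, 66.8% for LRRC4B, 64.6% for BRSK1, 60.2% for SYT3 and 56.3% for SYT5. The median was 49.4% over all 19659 protein-coding genes, 47.4% over the 480 listed ones, 58.5% over all protein-coding genes of chromosome 19 and 43.0% over the listed zinc finger genes of chromosome 19. SHANK1 exceeded 98.5% of the listed protein-coding genes and SYT5 76.3%. The neuronal and zinc finger genes of this chromosome thus share a positive sign in the table, while every one of the 5 transcripts was above the median of the zinc finger genes in G+C content.

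**Figure D5:**
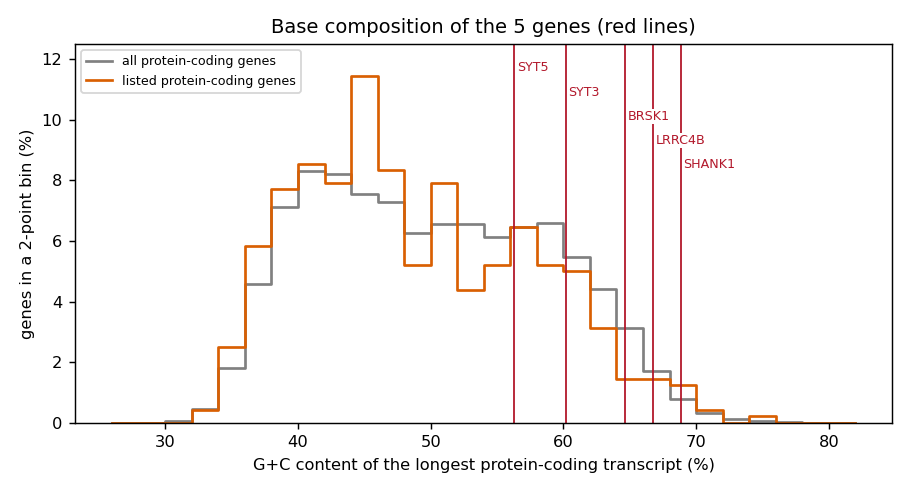
Share of genes (vertical axis, % per bin of 2 points) by the G+C content of their longest protein-coding transcript (horizontal axis, %), for all (grey) and listed (orange) protein-coding genes, with the 5 neuronal genes as red lines. The red lines run from 56.3% to 68.9%, to the right of both medians.

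How far reads can be assigned to these genes was checked on GENCODE transcripts, since no source used here gives the counting settings. For LRRC4B and SHANK1, 0% of the distinct stretches of 50 bases in their transcripts occurred in a transcript of another gene on either strand. The share was 1.26% for SYT5, 7.75% for BRSK1 and 9.60% for SYT3. In BRSK1 most of it came from AC020922.2, an antisense gene over 1.53% of its gene body, and in SYT3 all of it from AC010624.2, a long non-coding RNA of the same chromosome. SYT5 carries the antisense gene AC010327.3 over 68.6% of its gene body, a share that includes introns. Since only 1.26% of the SYT5 stretches occurred in any other gene on either strand, the annotated transcripts of both share few or no such stretches. None of these 3 non-coding genes was listed in the table.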

How the data were processed

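RNA sequencing of 6 K562 libraries (2 each of WT, IR1 and IR2) was summarised by the authors in 1 deposited table of 674 Ensembl identifiers with 2 columns of log2 fold change. Per the submitters' processing notes, the tools named are DESeq2 3.5, Subread, featureCounts and HISAT2 2.1.0, and the build is hg19. No role, setting, selection limit or strand mode of theirs is stated there. The planned count model could not be used, because values per library were not in hand, and the depth is unknown.

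The members and lists were chosen with earlier results of these data known. Symbols came from a gene name table (654 identifiers matched) and gene type and order from GENCODE release 29 on GRCh38 (657 matched), which differs from hg19 and served for neighbourhood and names. Promoters and their coordinates are RefSeq's on GRCh38.p14. Genes named are the 5 genes, every listed gene within 1 Mb, up to 6 per list by absolute mean, and the 3 nearest in both columns. BRSK2, STK11 and genes without a value in the table were named for the description. Values of some genes are not reported here, though they stay in the counts. Computation used Python 3.11.15, pandas 2.3.3 and numpy 2.4.6. The motif search was tested on simulated data, as recovery of exact motifs planted in sequence of A and T. Recovery of motifs with mismatches was not tested. The checks of G+C content and of stretches shared with other genes were added after the values were seen. Alternatives were the ordering column, the background genes, the window, the margin, the minimum fold and the mismatches allowed.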

Additional observations from a re-analysis of the deposited data

How the results depend on the processing

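The median place of the 5 genes among the positive genes, 14.8% by mean of both columns, was 26.9% when ordered by the second column alone, and stayed within its counting interval with the first column, protein-coding genes or chromosome 19 genes. For single genes, 11 of 20 such places moved beyond that interval. The interval is binomial and is set by the number of positive genes, so it gives no replicate spread. The median of the 5 genes lay below that of all listed genes by mean log2 fold change (difference -0.35). It also lay below that of protein-coding genes (-0.25), chromosome 19 genes (-0.65) and chromosome 19 genes without zinc finger names (-0.88). Apart from the protein-coding one, these sets also hold pseudogenes and non-coding genes. These medians include negative genes, and the difference was -0.72 from the positive genes and -0.59 from the positive protein-coding genes, comparisons chosen after seeing the data. A margin of 0.5 left 3 of the 5 genes with the larger absolute value in the second column, beside 331 of all 674 listed genes. The 9 listed neighbours within 1 Mb became 6 within 0.5 Mb and 19 within 2 Mb, with LILRP1 the negative one in each window. The 12 positive genes of the neuronal lists became 4 of 9 when both absolute values had to reach 2, and 7 of 14 without the 5 genes. The REST motif was found in 0 of the 4 promoters at each number of mismatches tried. Even with up to 2 mismatches it was in only 0.188% of all promoters, so 4 promoters could hardly show a difference. With stretches of 100 in place of 50 bases, a length chosen after seeing the data, the share found in other genes was 0% for SYT5, 4.75% for BRSK1 and 6.48% for SYT3. Protein identity between family members was not run. No paired analysis was possible because the table holds no value per library, and for the same reason no replicate could be left out.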

Other observations

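Regulators of neuronal genes and markers of cell types were also looked up. Only 480 of all 19659 protein-coding genes were listed, so nothing is read from the counts given here. Of 15 genes of the REST repressor complex, REST included, 0 were listed in the table used here, and their levels were not analysed here. Of 31 neurogenic transcription factor genes POU3F2 alone was listed, a POU factor of neural progenitors, at -2.0 and -2.25 in the authors' deposited table, opposite in sign to the 5 genes of 19q13. Of 6 markers of K562 cells 1 was listed, and its values are not reported here. Of 8 markers of fibroblasts and lymphocytes, the collagen gene COL1A1 alone was listed, at 4.39 and 5.27 in the authors' deposited table.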
